A study of Homo sapiens with 8 samples.

Results

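MYC and the proteins that pair with it, or compete with it, through the shared partner MAX were measured in Kasumi-1, a human acute myeloid leukemia line with the AML-ETO oncogene. All probe sets listed with exactly 1 gene symbol were taken for MYC, MYCN, MYCL, MAX, MXD1, MXD3, MXD4, MXI1, MNT and MLX. This gave 31 probe sets for 9 of the 10 genes, out of 41091 such probe sets for 19775 genes. MXD4 had only probe sets listed with a further symbol, and no level is given for it. Over all 10 genes, 3 probe sets were listed with a further symbol. Cells were electroporated with mRNA for GFP as the control (3 arrays), for wild type NR4A1 (NR4A1 WT, 3 arrays) or for NR4A1 with a mutated DNA binding domain (NR4A1 CEAA, 2 arrays). NR4A1 is an orphan nuclear receptor that the study describes as missing at the protein level in this line, so the model is a short supply from outside in a single line. RNA was taken 6 h later and read on Affymetrix U133 Plus 2.0 arrays. The comparisons ask which transcripts the receptor changes and whether its DNA binding domain is needed for it.

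MYC is a transcription factor of the basic helix-loop-helix leucine zipper class that binds DNA as a pair with MAX, mainly at the E-box CACGTG, and activates genes of growth and biosynthesis. The MXD proteins, MXI1 and MNT compete for MAX and repress genes with the same sites through SIN3 corepressor complexes. MLX takes the place of MAX for some of these proteins and for MLXIP and MLXIPL, which respond to glucose. In myeloid cells MYC is known to be high in dividing precursors, and MXD1 to rise as cells mature.

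All values are log2 probe set intensities after Robust Multiarray Analysis (RMA), so that a difference of 1 doubles the intensity. Array medians over all 54613 probe sets lay between 4.755 and 4.802. No detection call was used, and a level near these medians is not shown to be above background. Of the 31 probe sets, 22 had a mean at or above that of the median probe set (4.77) and 9 a lower one, 7 of these for MYCN. Of 8 markers of the line, the 7 measured were over the array median in every array, among them CD34, KIT and MPO. Their mean level was 9.66 to 9.81 with GFP, 9.78 to 9.84 with NR4A1 WT and 9.93 to 9.94 with NR4A1 CEAA. Of these 7, 2 were called higher and 1 lower with NR4A1 WT, and 3 higher with NR4A1 CEAA. None of the 2 measured erythroid markers (of 4) was over the median in every array, with mean levels of 4.44 to 4.83, and 2 of the 3 measured lymphoid markers (of 4) were, with mean levels of 4.99 to 5.24. Both markers of adherent cells were over it, with EPCAM at 11.66 ± 0.03 (SD, n = 3) in GFP. The part of these levels in the results was not tested. NR4A1 itself, in 3 probe sets, read 5.06 to 6.66 with 0 calls in limma in any comparison (lowest adjusted p = 0.497). Whether these probe sets detect the introduced mRNA is not known, so they check nothing about the group names. No label says that replicates came from separate cultures, so p-values measure the spread between these arrays, which may be technical.

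With NR4A1 WT, 5 of the 31 probe sets were lower than with GFP and 0 were higher (limma, adjusted p under 0.05), 1 each for MYC, MYCN, MAX, MXI1 and MNT. In that comparison 10.6% of all probe sets were called, 5.56% lower and 5.06% higher. The median log2 difference was -0.05 over the 31 and 0.0014 over all probe sets. The lower ones numbered 3 without GFP replicate 1, without GFP replicate 2 or without NR4A1 WT replicate 1. Rank Product, the test of the study's methods, called MYC and MNT, 2 lower ones, where it called 2.91% of all probe sets (1.43% lower, 1.48% higher).

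With NR4A1 CEAA, 1 probe set was higher than with GFP, that of MYC, and 4 were lower, 3 for MAX and 1 for MLX. Here 12.7% of all probe sets were called, 5.91% higher and 6.81% lower, and the median difference was -0.04 against -0.0089 for all. The lower ones numbered 2 without NR4A1 CEAA replicate 1, and none was the brightest probe set of its gene. Rank Product called 3 of the lower ones and not MYC, where it called 1.96% of all (0.562% higher, 1.39% lower).

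Between the forms, 4 probe sets were lower with NR4A1 WT than with NR4A1 CEAA, for MYC, MNT, MXI1 and MAX, and 5 were higher, 3 for MAX and 1 each for MLX and MXD3. All probe sets were called at 22.1% here, 10.9% lower and 11.2% higher. The higher ones numbered 2 without NR4A1 CEAA replicate 1. Rank Product called 1 lower (MYC) and 1 higher (MAX), where it called 2.42% of all (0.716% lower, 1.71% higher). Among probe sets that were not dim, the median size of the difference was 0.14 for the members and 0.13 for all probe sets with NR4A1 WT, and 0.13 and 0.17 with NR4A1 CEAA.

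**Figure D1:**
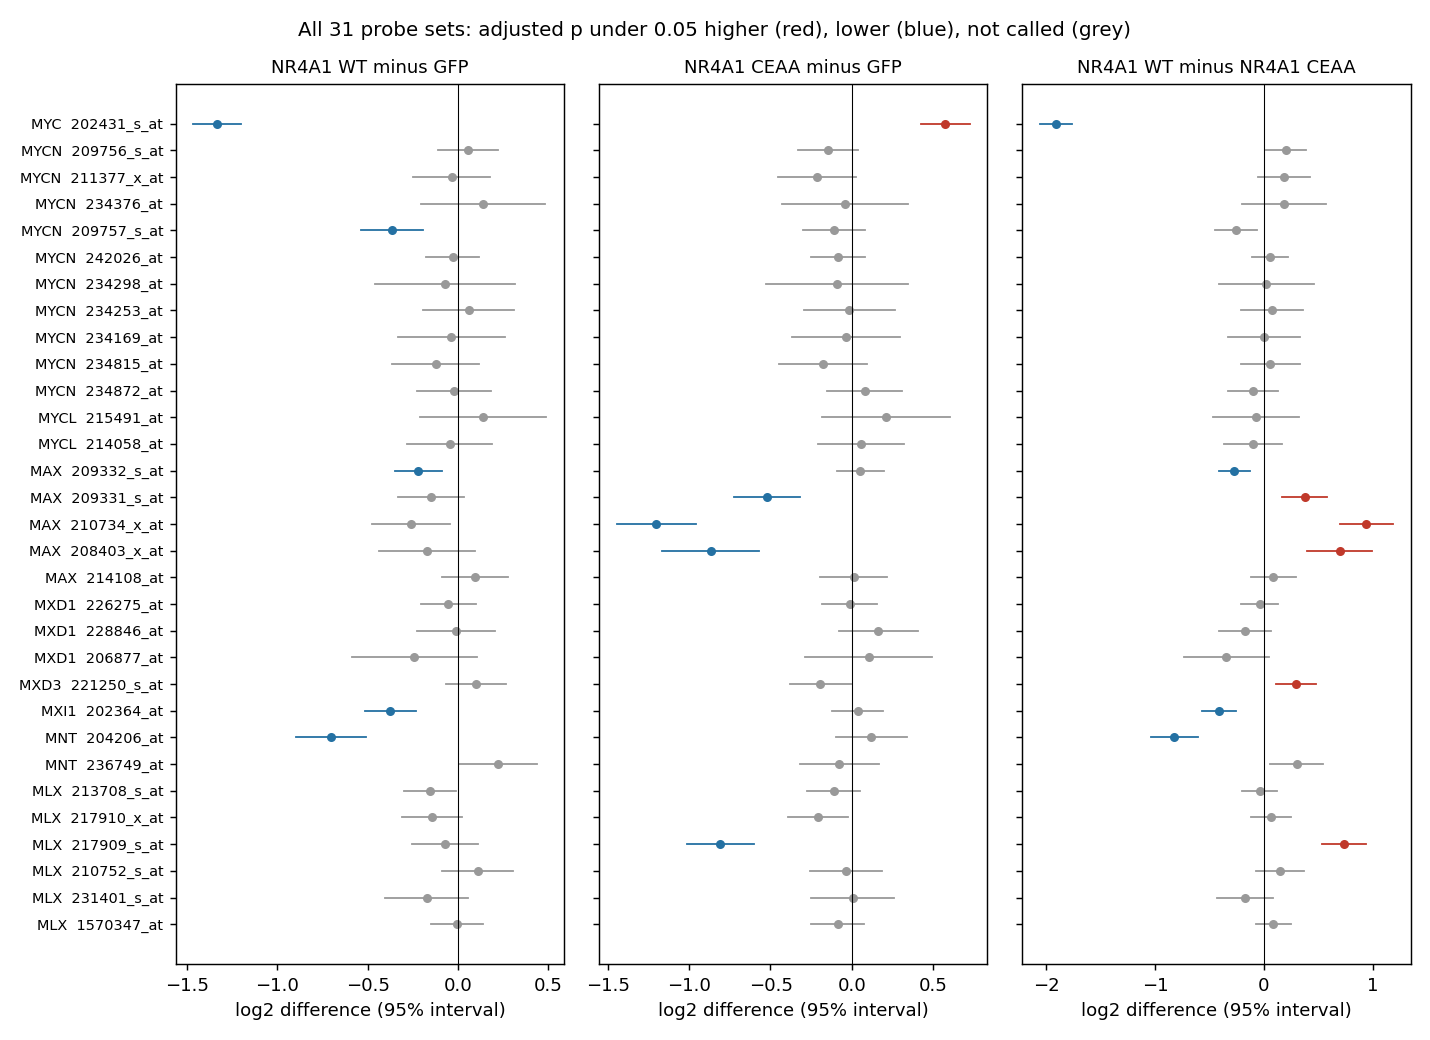
Log2 differences with 95% intervals (x axis) of the 31 probe sets (y axis, gene and probe set) in the 3 comparisons. Red and blue mark higher and lower at an adjusted p under 0.05 in limma and grey marks no call. MYC is lower by 1.33 with NR4A1 WT and higher by 0.57 with NR4A1 CEAA.

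MYC moved in opposite directions with the 2 forms of NR4A1. Its only probe set (202431_s_at) read 11.52, 11.59 and 11.55 in the GFP arrays, 10.24, 10.23 and 10.18 in the NR4A1 WT arrays, and 12.11 and 12.14 in the NR4A1 CEAA arrays. The groups did not overlap, and arrays of 1 group lay far closer to each other than to those of the other groups. With NR4A1 WT the intensity fell 2.52-fold, a log2 difference of -1.33 (standard error 0.06, adjusted p = 3.72e-06, limma). With NR4A1 CEAA it rose 1.49-fold, a log2 difference of 0.57 (standard error 0.07, adjusted p = 0.0014, limma), which Rank Product did not call (q = 0.2183). Set against NR4A1 CEAA directly, MYC was 3.75-fold lower with NR4A1 WT (log2 difference -1.91, standard error 0.07, adjusted p = 1.56e-06, limma). With any 1 array left out, the NR4A1 WT difference stayed between -1.35 and -1.32 and the NR4A1 CEAA difference between 0.56 and 0.59. The comparisons with GFP share the GFP arrays, and no second probe set checks these sizes.

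**Figure D2:**
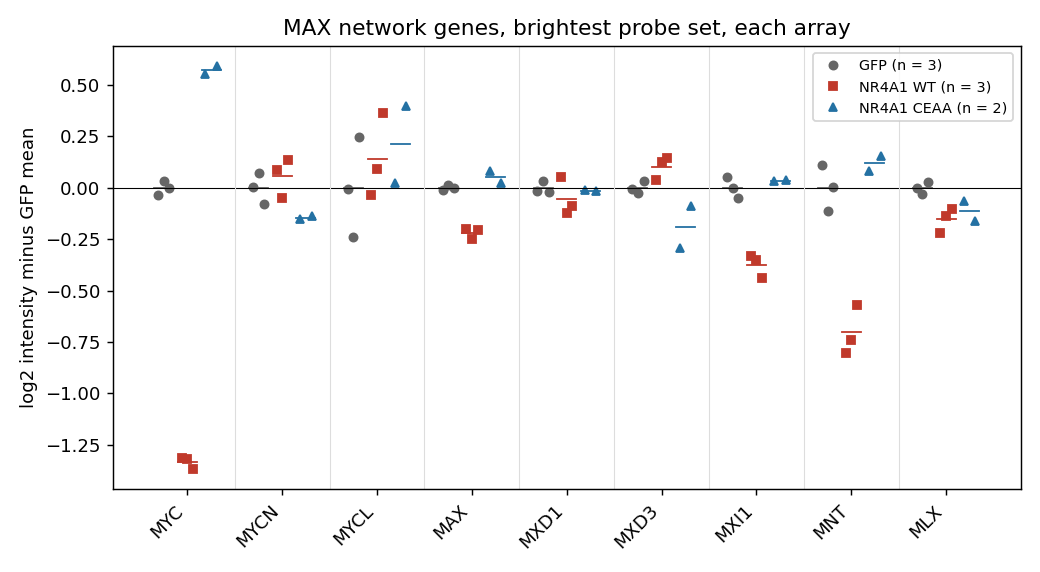
Log2 intensity minus the GFP mean (y axis) of the brightest probe set of each of the 9 measured genes (x axis). Points are single arrays and short lines are group means, in grey for GFP (3 arrays), red for NR4A1 WT (3) and blue for NR4A1 CEAA (2). MYC lies at -1.33 and 0.57 in the NR4A1 forms, and MNT at -0.70 and 0.12.

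The paralogs MYCN and MYCL, which pair with MAX as MYC does and are known from neural and lung tumors, had low readings. Over all arrays the 10 MYCN probe sets read 2.84 to 5.82, and 7 of them were dim, with a mean under that of the median probe set. The brightest (209756_s_at) read 5.69, 5.76 and 5.61 with GFP, 5.78, 5.64 and 5.82 with NR4A1 WT, and 5.54 and 5.55 with NR4A1 CEAA, and was not called in any comparison. It was called between the forms (difference 0.20, adjusted p = 0.0483, limma) when dim probe sets were left out before the test. The MYCN probe set 209757_s_at was lower with NR4A1 WT (4.25, 4.34 and 4.32) than with GFP (4.69, 4.77 and 4.54), by 0.36 (standard error 0.08, adjusted p = 0.016, limma). Its NR4A1 CEAA arrays read 4.59 and 4.52, so all these levels lay near or under the array medians. That call ended without GFP replicate 1 (adjusted p = 0.0619), GFP replicate 2 (0.0628) or NR4A1 WT replicate 1 (0.0507). The brighter MYCL probe set (215491_at) read 4.77, 4.54 and 5.02 with GFP, 4.74, 4.87 and 5.14 with NR4A1 WT, and averaged 4.99 ± 0.26 (SD, n = 2) in NR4A1 CEAA, with overlap between all groups. Neither MYCL probe set was called, and the interval of the NR4A1 WT difference ran from -0.21 to 0.49 in the brighter one. No probe set of either paralog was called higher with NR4A1 WT than with GFP.

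MNT, which encodes a MAX-binding repressor present in resting and dividing cells alike, fell with NR4A1 WT. Its brighter probe set (204206_at) read 8.80, 8.58 and 8.70 with GFP, 7.89, 7.95 and 8.12 with NR4A1 WT, and 8.78 and 8.85 with NR4A1 CEAA. Every NR4A1 WT array lay under all other arrays, and GFP and NR4A1 CEAA arrays overlapped. The intensity fell 1.63-fold, a log2 difference of -0.70 (standard error 0.09, adjusted p = 0.00102, limma), with q = 0.0141 in Rank Product. With NR4A1 CEAA the difference was 0.12, with a 95% interval of -0.10 to 0.34. Between the forms it was -0.82 (standard error 0.10, adjusted p = 0.000461, limma), not called by Rank Product (q = 0.1491). The other MNT probe set (236749_at) read 5.03, 5.17 and 5.07 with GFP, close to the array medians, and did not follow. Its NR4A1 WT difference was 0.22 and was not called (adjusted p = 0.21, limma). Between the forms it differed by 0.30, opposite in sign to the brighter set, and this was called when dim probe sets were left out before the test (adjusted p = 0.0403, limma) and not otherwise (0.0803). The NR4A1 WT differences from GFP of the MNT pair spanned 0.92. Of 5949 genes with at least 2 single-symbol probe sets that were not dim, 1.23% had a wider span. Between the forms the pair spanned 1.12, and 5.19% of these genes had a wider span.

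The 250 bases before each RefSeq start in build GRCh38.p14 were searched on both strands for the E-box CACGTG, which reads the same on both, and for the NR4A response element AAAGGTCA (NBRE). Windows were found for 8 of the 9 measured genes, MYC not among them. None of the members' 12 windows, MXD4 included, held AAAGGTCA, which stood in 1.05% of 35116 windows of the same length. At that share, 12 windows are too few to tell the members from other genes. The study places most NR4A1 sites of regulated genes distal to the start, outside such windows. CACGTG stood in 6.34% of all windows and in 3 of the members' 12, those of MNT, MLX and MXD4, a count that was not tested. The windows of MXI1 and MAX, whose brightest probe sets were also lower with NR4A1 WT, held no CACGTG. Those of MNT and MLX are shown since they carry the site that the network's own proteins bind and both genes were measured. The brighter MNT probe set fell with MYC, and the brightest of MLX was not called. The windows end at the base before the start, with the E-box in capitals, MNT at chr17:2401061-2401310 on the minus strand and MLX at chr17:42566850-42567099 on the plus strand.
MNT: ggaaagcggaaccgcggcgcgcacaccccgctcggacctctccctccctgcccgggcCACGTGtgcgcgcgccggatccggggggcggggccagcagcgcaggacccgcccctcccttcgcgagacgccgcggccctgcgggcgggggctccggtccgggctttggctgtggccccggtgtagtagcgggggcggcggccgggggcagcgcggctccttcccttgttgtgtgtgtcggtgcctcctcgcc
MLX: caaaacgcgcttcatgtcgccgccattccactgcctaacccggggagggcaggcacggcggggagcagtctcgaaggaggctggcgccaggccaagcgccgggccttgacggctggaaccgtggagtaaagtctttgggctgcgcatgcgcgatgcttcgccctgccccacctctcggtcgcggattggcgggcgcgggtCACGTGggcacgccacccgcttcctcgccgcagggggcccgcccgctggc
The E-box began 193 bases before the start of MNT and 50 before that of MLX. A match describes the sequence and is not a measured binding site.

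MXI1, a further MAX partner that recruits SIN3, was also lower with NR4A1 WT. Its only probe set (202364_at) read 11.48, 11.43 and 11.38 with GFP, 11.10, 11.08 and 10.99 with NR4A1 WT, and 11.47 in both NR4A1 CEAA arrays. The NR4A1 WT arrays lay under all others. The fall was 1.30-fold, a log2 difference of -0.37 (standard error 0.06, adjusted p = 0.00522, limma). Against NR4A1 CEAA it was -0.41 (standard error 0.07, adjusted p = 0.00308, limma). Rank Product called neither (q = 0.3466 and 0.593). The NR4A1 CEAA difference from GFP was 0.04, with an interval of -0.12 to 0.19.

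MXD1, the member known to be induced in maturing myeloid cells, gave no call in its 3 probe sets. The brightest (226275_at) read 8.45, 8.50 and 8.45 with GFP, 8.52, 8.34 and 8.38 with NR4A1 WT, and 8.46 and 8.45 with NR4A1 CEAA. The groups overlapped. The difference from GFP was -0.05 with NR4A1 WT (interval -0.21 to 0.10) and -0.01 with NR4A1 CEAA (interval -0.19 to 0.16). The dim probe set 206877_at read 4.29, 4.08 and 4.73 in the NR4A1 WT arrays. Without NR4A1 WT replicate 3, the highest of these, it was called lower than with GFP (log2 difference -0.42, adjusted p = 0.0465, limma) and with NR4A1 CEAA (-0.53, adjusted p = 0.0155, limma).

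MXD3, a member known for its expression in dividing cells, read 8.25, 8.23 and 8.28 with GFP, 8.29, 8.38 and 8.40 with NR4A1 WT, and 7.96 and 8.16 with NR4A1 CEAA (221250_s_at). Neither difference from GFP was called (0.10 and -0.19, adjusted p = 0.47 and 0.17, limma). The level was higher with NR4A1 WT than with NR4A1 CEAA by 0.30 (standard error 0.08, adjusted p = 0.03, limma). That call ended without NR4A1 CEAA replicate 1 (difference 0.19, adjusted p = 0.238), NR4A1 WT replicate 2 (0.0674) or NR4A1 WT replicate 3 (0.0746), and with the replicate number as a block (0.0672).

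MAX, the common partner, gave different answers in different probe sets. The brightest (209332_s_at) read 10.62, 10.65 and 10.64 with GFP, 10.44, 10.38 and 10.43 with NR4A1 WT, and 10.72 and 10.66 with NR4A1 CEAA. The NR4A1 WT arrays were the lowest. Their log2 difference from GFP was -0.22 (standard error 0.06, adjusted p = 0.044, limma), a call that ended in 11 of 16 alternatives, among them without any 1 of the GFP or NR4A1 WT arrays (adjusted p = 0.0714 to 0.13) and with the replicate block (0.0957). No other MAX probe set was called in that comparison, except 210734_x_at (log2 difference -0.26) with an intensity trend in the fit (adjusted p = 0.0447, limma). Against NR4A1 CEAA the brightest set differed by -0.27 (adjusted p = 0.0158, limma), a call that ended without NR4A1 CEAA replicate 1 (0.118) or replicate 2 (0.0594), with only these groups in the fit (0.0547) and in Rank Product (q = 0.8604).

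With NR4A1 CEAA, the brightest MAX probe set differed from GFP by 0.05 (interval -0.09 to 0.20), while 3 others were lower. The set 210734_x_at read 8.15, 7.97 and 8.19 with GFP, 7.76, 7.91 and 7.86 with NR4A1 WT, and 7.04 and 6.76 with NR4A1 CEAA. Its NR4A1 CEAA arrays stood apart from all others, at a log2 difference of -1.20 from GFP (standard error 0.11, adjusted p = 0.000544, limma). The set 208403_x_at read 6.77, 6.63 and 6.79 with GFP and 5.79 and 5.94 with NR4A1 CEAA, a difference of -0.87 (standard error 0.13, adjusted p = 0.00445, limma) that was not called without NR4A1 CEAA replicate 1 (0.0552). The set 209331_s_at differed by -0.52 (adjusted p = 0.00786, limma), not called without NR4A1 CEAA replicate 1 (0.0577) or replicate 2 (0.0707). Between the forms these 3 sets were higher with NR4A1 WT by 0.94, 0.70 and 0.37. The difference of 0.70 was not called without NR4A1 CEAA replicate 1 (adjusted p = 0.0562, limma) or in Rank Product (q = 0.0745). That of 0.37 was not called without NR4A1 CEAA replicate 1 (0.0756) or replicate 2 (0.114), with the replicate block (0.0583) or in Rank Product (q = 0.5408). The dimmest MAX set, 214108_at, differed from GFP by 0.01 with NR4A1 CEAA.

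The letter x in a probe set name marks probes that can match other sequences as well, and the letter s probes shared by several transcripts. Which MAX transcripts each set reads was not tested. The NR4A1 CEAA differences of the 5 MAX sets spanned 1.25, against a median span of 0.29 over the 5949 genes, and 1.36% of these had a wider span. With NR4A1 WT the MAX sets spanned 0.36, against a median of 0.16. Spans widen with the number of probe sets, which was not matched here.

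MLX showed a similar split. Of its 6 probe sets, 1 (217909_s_at) was lower with NR4A1 CEAA, at 7.66 and 7.53, than with GFP, at 8.40, 8.36 and 8.45. The NR4A1 WT arrays, at 8.20, 8.45 and 8.35, overlapped those of GFP. The NR4A1 CEAA difference was -0.81 (standard error 0.09, adjusted p = 0.00129, limma), with q = 0.0057 in Rank Product. Between the forms it was higher with NR4A1 WT by 0.74 (adjusted p = 0.000566, limma), just outside the call of Rank Product (q = 0.0508). The brightest MLX set (213708_s_at) differed from GFP by -0.11 with NR4A1 CEAA (interval -0.27 to 0.05). The NR4A1 CEAA differences from GFP of the 6 sets spanned 0.81, and 7.56% of the 5949 genes had a wider span. With NR4A1 WT none of the 6 was called against GFP. The brightest differed by -0.15 there (adjusted p = 0.199, limma), and was called with an intensity trend in the fit (adjusted p = 0.041, limma).

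**Figure D3:**
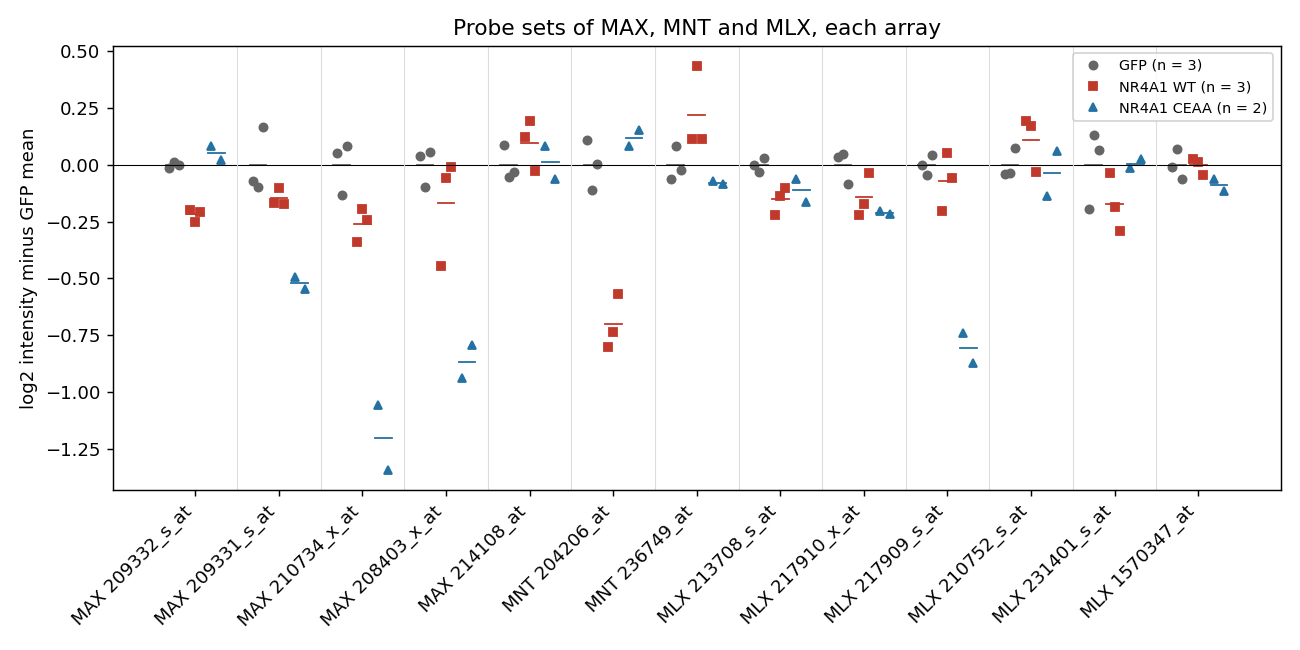
Log2 intensity minus the GFP mean (y axis) of the 5 MAX, 2 MNT and 6 MLX probe sets (x axis), with single arrays as points and group means as short lines. With NR4A1 CEAA 3 MAX sets and 1 MLX set lie 0.52 to 1.20 under GFP, while the brightest MAX and MLX sets lie at 0.05 and -0.11.

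Over the 8 arrays the brightest probe sets of MAX, MXI1 and MNT had Pearson correlations of 0.976, 0.959 and 0.956 with MYC. Those of MLX, MXD1 and MYCL were 0.46, 0.383 and -0.026, and those of MYCN and MXD3 -0.697 and -0.805. These values describe 8 arrays that share 3 groups and a normalization, and so mostly the group means. How many other genes reach correlations of this size was not counted. They hold for the brightest sets only. With NR4A1 CEAA 3 other MAX sets fell where MYC rose, and the other MNT set did not fall with NR4A1 WT. Among 12816 other genes whose brightest probe set was not dim, the 6 most like MYC were ZNF121, RPL7L1, B3GNT5, SERINC5, DDX21 and CD44 (0.9955 to 0.997). SERINC5, a membrane protein gene, read 10.48, 10.53 and 10.43 with GFP, 9.52, 9.50 and 9.54 with NR4A1 WT, and 10.92 and 10.80 with NR4A1 CEAA. DDX21, an RNA helicase gene of the nucleolus, differed from GFP by -0.59 (NR4A1 WT) and 0.24 (NR4A1 CEAA). The adhesion receptor gene CD44 differed by -0.65 and 0.33, the zinc finger gene ZNF121 by -0.41 and 0.23, the glycosyltransferase gene B3GNT5 by -0.61 and 0.29, and RPL7L1 by -0.34 and 0.17. Each of the 6 differed from GFP by less than MYC in both comparisons. The 3 most opposite were NFU1, TSPAN14 and SAT1 (-0.9983 to -0.9977). SAT1, which encodes an enzyme of polyamine breakdown, differed by 0.65 with NR4A1 WT and by -0.29 with NR4A1 CEAA.

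**Figure D4:**
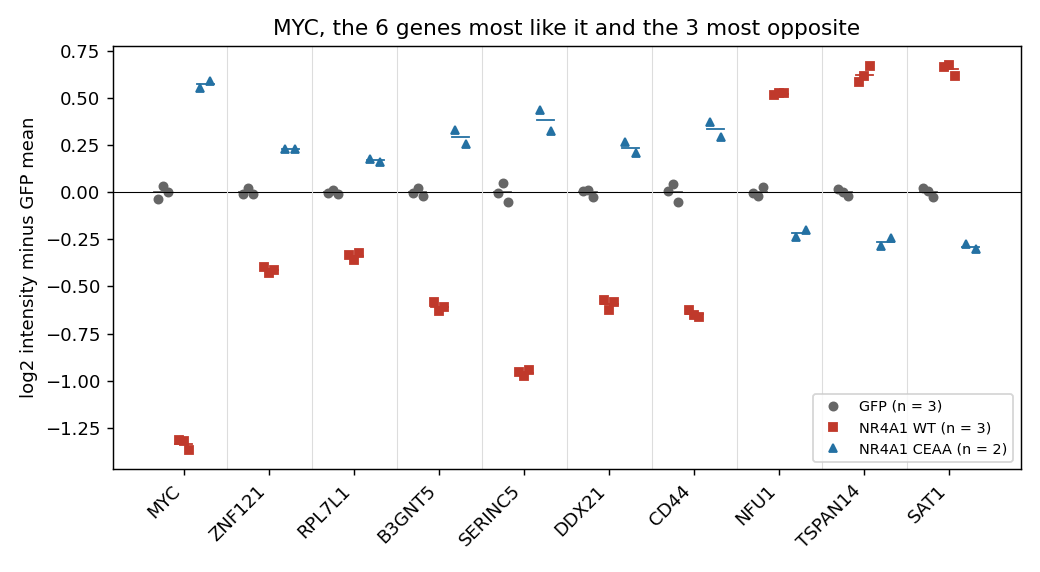
Log2 intensity minus the GFP mean (y axis) of MYC, the 6 genes most like it and the 3 most opposite (x axis), with single arrays as points and group means as short lines. SERINC5 lies at -0.96 with NR4A1 WT and 0.38 with NR4A1 CEAA, and SAT1 at 0.65 and -0.29.

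Other genes of the pathway were read from their brightest probe sets. Of these sets over all genes, 15.5% were called with NR4A1 WT against GFP (7.48% higher, 8.03% lower), 14.8% with NR4A1 CEAA (5.2% higher, 9.57% lower) and 27.2% between the forms (15.6% higher, 11.5% lower). List counts are of brightest sets only, and some genes not called had further sets that were called. The first list held MGA, MLXIP and MLXIPL, further partners of MAX and MLX, with TXNIP and ARRDC4, which the MLX arm regulates. Of these 5 genes, 2 fell with NR4A1 WT and 0 rose. ARRDC4, an arrestin family gene, fell by 0.46 (adjusted p = 0.0144, limma) and MGA, which encodes a large repressor, by 0.25 (adjusted p = 0.0362, limma), though none of the 3 other MGA probe sets was called. With NR4A1 CEAA 0 of 5 were called. With NR4A1 WT, TXNIP and MLXIPL differed from GFP by 0.20 and 0.30, opposite to ARRDC4, and were not called (adjusted p = 0.0659 and 0.0799, limma). These 2 were called higher when only brightest probe sets entered the test.

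Of 14 measured corepressor genes of the SIN3 and NCOR complexes (17 listed), 1 fell with NR4A1 WT and 0 rose. SAP30, which encodes a SIN3 complex subunit, fell by 0.60 (adjusted p = 0.000594, limma), and 2 of its 3 further probe sets were lower as well. For genes not called, 3 of 5 further RBBP4 sets and 1 of 2 further SAP18 sets were lower, and 1 of 3 further ING1 sets was higher. With NR4A1 CEAA 3 fell and 1 rose. BRMS1 fell by 0.61, SAP18 by 0.36 and SIN3A, the scaffold of the complex, by 0.29, and ARID4B rose by 0.31 (adjusted p = 0.00167, 0.0111, 0.0184 and 0.0239, limma). None of the 2 further SAP18 or 3 further SIN3A probe sets was called there, and 1 of 3 further ARID4B sets was higher. The list's median difference from GFP was -0.02 with NR4A1 WT and 0.0020 with NR4A1 CEAA.

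Of 17 measured coactivators and partners of MYC (18 listed), 2 rose and 3 fell with NR4A1 WT. The acetyltransferase genes CREBBP and KAT2B rose by 0.52 and 0.28 (adjusted p = 0.000697 and 0.0295, limma). None of the 3 further CREBBP probe sets was called. WDR5, a chromatin adaptor that binds MYC, fell by 0.49 and RUVBL1, an ATPase gene, by 0.38 (adjusted p = 0.00548 and 0.00447, limma). The further WDR5 probe set was not called. KAT2A, which was named after its values were seen, fell by 0.26. With NR4A1 CEAA 2 rose and 2 fell. The elongation kinase gene CDK9 fell by 0.67 and the acetyltransferase gene KAT5 by 0.50, while EP300 rose by 0.46 and KAT2B by 0.28 (adjusted p = 0.00313, 0.00321, 0.0233 and 0.0418, limma). Of the 2 further CDK9 probe sets 0 were called. The 2 further KAT5 sets were lower as well, and the further EP300 set was higher.

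Of 18 measured genes of MYC protein turnover (19 listed), 2 rose and 1 fell with NR4A1 WT. USP36, which encodes a nucleolar deubiquitinase of MYC, fell by 0.40 (adjusted p = 0.00444, limma), as did 2 of its 4 further probe sets. The kinase gene PIM1 rose by 0.37 and CIP2A, an inhibitor of the phosphatase PP2A, by 0.34 (adjusted p = 0.0257 and 0.0206, limma). With NR4A1 CEAA 1 rose, CIP2A by 0.30 (adjusted p = 0.049, limma), and 0 fell. For genes not called there, both further STUB1 sets and 1 further set each of GSK3A and SET were lower. Of USP36 and USP37, 1 further set each was higher. The further CIP2A probe set was not called in either comparison with GFP.

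Of 9 related factors that bind E-boxes, 2 fell with NR4A1 WT and 0 rose, TFEB by 0.49 and TFE3 by 0.39 (adjusted p = 0.00934 and 0.0105, limma). Both are known as regulators of lysosome genes. The further TFEB probe set was not called, and 1 of 3 further TFE3 sets was lower. With NR4A1 CEAA 3 fell and 0 rose. USF1, an E-box factor found in most cells, went from 7.34 ± 0.06 (SD, n = 3) with GFP to 6.35 ± 0.10 (SD, n = 2), a log2 difference of -0.98 (adjusted p = 0.000326, limma). TFE3 fell by 0.58 and SREBF2, a regulator of sterol synthesis, by 0.48 (adjusted p = 0.00375 and 0.00539, limma).

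Of 31 measured genes that MYC is known to activate (35 listed), 15 fell and 0 rose with NR4A1 WT. Their median log2 difference was -0.21, against 0.0019 for the brightest probe sets of all genes, and Rank Product called 4 of them lower. The list, like the others, was chosen with earlier results of these data known. These values are therefore no independent test of MYC activity. POLR1B, a gene of RNA polymerase I, went from 9.98 ± 0.02 (SD, n = 3) with GFP to 8.90 ± 0.08 (SD, n = 3), a difference of -1.07 (adjusted p = 1.82e-05, limma). RIOX2, a MYC-induced hydroxylase gene, fell by 0.75, PPAT, which acts at the start of purine synthesis, by 0.70 and the hexokinase gene HK2 by 0.64 (adjusted p = 0.000404, 0.000291 and 0.000488, limma). Of the 2 further PPAT probe sets, 1 was lower and 1 higher.

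With NR4A1 CEAA, where MYC was higher, 2 of the 31 rose and 5 fell, and their median difference was 0.03, against -0.03 for all genes. The falls numbered 10 when only brightest probe sets entered the test. TFRC, the transferrin receptor gene, rose by 0.42 (adjusted p = 0.00459, limma). The glycolysis gene PKM fell by 0.67, the cell cycle kinase gene CDK4 by 0.65 and PHB1 by 0.57 (adjusted p = 0.00454, 0.000811 and 0.00173, limma). The further probe set of PKM and that of PHB1 were not called, and 2 of 4 further TFRC sets were higher. PPAT, which rose by 0.34, and SRM and the brightest set of CCND2, which fell by 0.35 and 0.27, were named here after their values were seen. Of the 3 further CCND2 probe sets, 2 were called higher with NR4A1 CEAA and 0 lower. TFRC and PPAT were lower with NR4A1 WT and higher with NR4A1 CEAA, as MYC was, while CDK4 and SRM were lower with both. Between the forms 15 of the 31 were lower and 4 higher with NR4A1 WT.

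Of 14 measured genes that MYC is known to repress (15 listed), 3 fell and 0 rose with NR4A1 WT. GAS1, a growth arrest gene, fell by 0.64, the stress gene GADD45A by 0.62 and the myeloid factor gene CEBPA by 0.55 (adjusted p = 0.00453, 0.000911 and 0.00122, limma). Of the 2 further GAS1 probe sets 0 were called. When only brightest probe sets entered the test, 3 genes of the list were called higher. With NR4A1 CEAA 2 fell and 0 rose, CEBPA by 0.40 and NDRG1 by 0.34 (adjusted p = 0.0118 and 0.0198, limma).

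**Figure D5:**
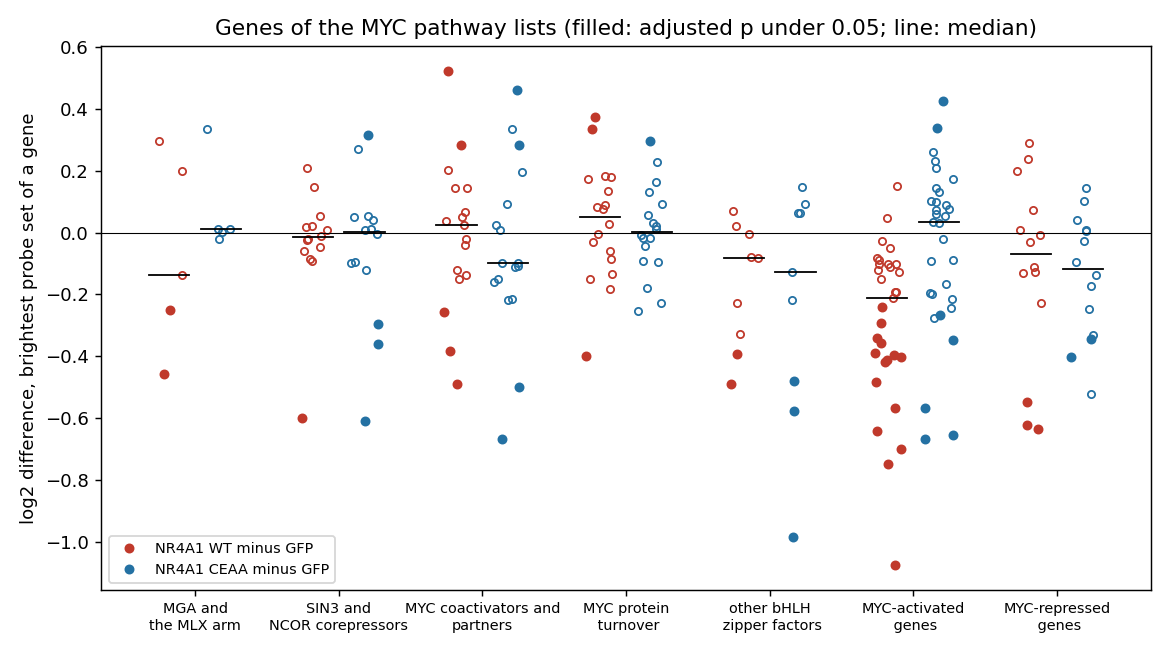
Log2 differences from GFP (y axis) of the genes of 7 lists (x axis), read from the brightest probe set of each gene, for NR4A1 WT (red) and NR4A1 CEAA (blue). Points are genes, filled at an adjusted p under 0.05 in limma, and lines are list medians. The MYC-activated genes have a median of -0.21 with NR4A1 WT and 0.03 with NR4A1 CEAA.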

How the data were processed

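Affymetrix U133 Plus 2.0 arrays of 8 Kasumi-1 samples, 1 array each, were grouped by the titles in the labels. The deposited values are log2 intensities that the authors made with RMA in RMA Express, whose version is not given in the sources used here. RMA gives all arrays nearly the same distribution, so a shift of most transcripts would not be seen. The number of arrays limits the precision.

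All 54613 probe sets were fitted over the 3 groups in limma 3.58.1 (R 4.3.3, lmFit and eBayes, no covariate, 8.69 degrees of freedom), with Benjamini-Hochberg adjustment over all of them. Calls are adjusted p under 0.05 and intervals are 95%. Symbols came from GEO's platform annotation. The brightest probe set of a gene has its highest mean over the 8 arrays, and a dim one a mean under the median of all. Named were all member probe sets, up to 4 called genes with the largest change per list and comparison with GFP, and the 6 genes most and 3 least correlated with MYC, with exceptions marked. The members and gene lists were chosen with earlier results of these data known. Rank Product was run over all pairs of arrays with 100 permutations and called at q of 0.05 or less. Both tests were tested on simulated data. Alternatives were an intensity trend, array weights, only the groups compared, leaving out dim probe sets, median centering, renewed quantile normalization, a replicate block, only single-symbol or brightest probe sets, a threshold of 0.01, Rank Product and leaving out each array. Promoters came from RefSeq. Figures were drawn with matplotlib 3.10.9 in Python 3.11.15.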

Additional observations from a re-analysis of the deposited data

Results flagged for a closer look

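In 9 of the 31 member probe sets the effects of the forms of NR4A1 differed from each other by a direct test (limma, adjusted p under 0.05), where 22.1% of all probe sets did. NR4A1 WT minus NR4A1 CEAA was -1.91 on the log2 scale for MYC (202431_s_at), -0.82 for MNT (204206_at), -0.41 for MXI1 (202364_at) and -0.27 for the brightest MAX set (209332_s_at). It was 0.37, 0.94 and 0.70 for the MAX sets 209331_s_at, 210734_x_at and 208403_x_at, 0.74 for MLX (217909_s_at) and 0.30 for MXD3 (221250_s_at). With 2 or 3 arrays in a group, single arrays were not tested as outliers.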

How the results depend on the processing

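Of 19 called member differences, 6 kept their call in every alternative and 0 changed direction in any. The fall of MYC with NR4A1 WT was called in all of them (limma adjusted p at most 0.000135), and its rise with NR4A1 CEAA in all but Rank Product (0.57, q = 0.2183). Rank Product called 2 probe sets lower with NR4A1 WT, 0 higher with NR4A1 CEAA, and 1 higher and 1 lower between the forms. At an adjusted p under 0.01, 3 were lower with NR4A1 WT and 3 higher between the forms. With only the brightest probe set of each gene, 0 were lower with NR4A1 CEAA and 1 was higher between the forms, since other MAX and MLX sets drop out. With each array left out in turn, 3 to 5 were lower with NR4A1 WT, 2 to 4 lower with NR4A1 CEAA, and 2 to 5 higher and 3 to 5 lower between the forms. A lone NR4A1 CEAA array was assumed to vary like the other groups. Deviations from group means correlated at -0.029 to 0.063 over 7 pairs of arrays with the same replicate number, and at -0.079 to 0.079 over other pairs. With 2 or 3 arrays in a group, these values cannot tell whether replicate numbers pair the arrays. With the replicate number as a block, 3 were higher between the forms. Among the other pathway genes, testing only brightest probe sets gave 4 higher and 2 lower for MYC protein turnover and 4 lower for the related E-box factors with NR4A1 WT, and 1 corepressor gene higher. With NR4A1 WT, Rank Product called 0 genes lower of the MGA and MLX arm, the coactivators, protein turnover and the related factors, and the 4 lower MYC-activated genes given above. It also called SAP30, GAS1 and GADD45A lower (q = 0.0415, 0.0324 and 0.0335) and not CEBPA (q = 0.069). The rises named with NR4A1 WT, of CREBBP, KAT2B, PIM1 and CIP2A, were not called in Rank Product (q = 0.0914, 0.6757, 0.362 and 0.4824). With NR4A1 CEAA it called 0 genes higher in any of the lists, so that no rise named there was called by it, and lower 2 MYC-activated genes, 0 MYC-repressed genes and 1 gene each of the corepressors, the coactivators and the related factors. Other causes were not tested. Low signal limits MYCN and MYCL.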
